A study of Homo sapiens with 3 samples.

Results

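The genes described here are NFE2L2, which encodes the transcription factor NRF2, its inhibitor KEAP1, and 7 redox genes that NRF2 is known to activate: NQO1, GCLC, GCLM, SLC7A11, TXN, TXNRD1 and SRXN1. They were taken by name from the deposited table and make up 9 of its 44591 genes. The cells were Caki-1, a long-established line of human clear cell renal cell carcinoma. They received either a non-targeting siRNA (si-Control) or an siRNA to RBCK1, of which there were 2 (si-HOIL-1#1 and si-HOIL-1#2), and RNA was taken 48 h later. HOIL-1 is another name of RBCK1, a subunit of the linear ubiquitin chain assembly complex. The methods give 10 nmol/L siRNA for transfections in general. The comparison asked which transcripts differed after RBCK1 depletion. Each condition had 1 library, so the differences could not be set against a spread between replicates, and no p-value is given. Both siRNA libraries are set against the same si-Control library, so the comparisons are not independent, and the siRNAs are different reagents, not replicates.

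KEAP1 holds NRF2 in the cytoplasm and passes it to a CUL3 ubiquitin ligase for degradation. Oxidants and electrophiles modify KEAP1, NRF2 then accumulates, pairs with a small MAF protein and binds antioxidant response elements in the promoters of its target genes. These genes supply cystine and glutathione, keep thioredoxin and peroxiredoxins reduced, make NADPH and detoxify quinones. NRF2 is regulated mainly as a protein, so its activity cannot be read from its mRNA, and no protein was measured in these files.

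The strands of the siRNAs that match RBCK1 mRNA are shown because they define the treatments. The study lists them as siRBCK1 #1 and #2, and they were assigned to si-HOIL-1#1 and si-HOIL-1#2 by number alone. Capitals mark bases 12 to 18, which pair with bases 2 to 8 of the guide strand, the seed.
si-HOIL-1#1: ggtgcaccttcATCAACAa
si-HOIL-1#2: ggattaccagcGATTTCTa
Within the longest protein-coding RBCK1 transcript (2774 nt), the first matched bases 1307 to 1325 and the other bases 1749 to 1767, both in the coding part (bases 706 to 2235). Among the longest protein-coding transcripts of 19669 genes, RBCK1 was the only gene with a full match to either. The 7 capital bases alone occurred in the transcripts of 22.3% of genes for si-HOIL-1#1 and of 25.9% for si-HOIL-1#2. SLC7A11 held 1 such match to each siRNA, both in the 3′ UTR. TXNRD1 held 3 matches to si-HOIL-1#2, 2 of them in the coding part and 1 in the 5′ UTR, and GCLC held 1 in its coding part. The other 6 genes held none to either siRNA. The part of seed matches in the values below was not tested.

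The targeted gene was checked first. RBCK1 was at 33.3 RPKM (reads scaled by gene length and by library size) with si-Control, 9.97 with si-HOIL-1#1 and 12.3 with si-HOIL-1#2. These are 29.9% and 36.8% of the si-Control level, so both libraries went with their labels. Library totals lay between 36344428 and 40442939 reads. The smallest read numbers that give a gene's RPKM values were recovered, and 95% intervals come from these reads. They cover counting error only, neither culture nor amplification, and PCR copies are not independent molecules. In bulk RNA, fewer cells expressing a gene and less of its RNA per cell cannot be told apart.

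As a check on the line, the renal and epithelial markers PAX8, KRT8, KRT18, VIM and NNMT were at 65.6 RPKM or more in every library. CA12 was at 1.17 to 1.86 RPKM, and PAX2 did not exceed 0.0642 RPKM. The 7 markers summed to 1019, 1982 and 1983 RPKM with si-Control, si-HOIL-1#1 and si-HOIL-1#2. Among them, 2 were at least 2-fold higher with both siRNAs, the intermediate filament genes VIM (664, 1512 and 1392 RPKM) and KRT8 (65.6, 172 and 238 RPKM). Of all 12403 genes with a mean level of 1 RPKM or above, 2.91% were at least 2-fold higher with si-HOIL-1#1 and 2.5% with si-HOIL-1#2. PAX8, a renal transcription factor, was at 124, 82.5 and 107 RPKM. Of 6 markers of other cell types, CD3E was listed at 0 throughout, PTPRC did not exceed 0.0223 RPKM and PECAM1 did not exceed 0.0247 RPKM. CD14 and ALB did not exceed 0.381 RPKM, and COL1A1 was at 4.68, 3.21 and 4.41 RPKM. The marker differences ran beside all the results below, and their part in these was not tested.

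The levels of the 9 genes spanned a wide range, with genes above and below si-Control. All 9 passed the filter on low values (mean level 1 RPKM or above), as did 12403 genes in all (the genes used below). On the log2(RPKM + 1) scale, 5 of the 9 were above si-Control with each siRNA (KEAP1, NQO1, TXN, SRXN1 and GCLC) and 4 below (NFE2L2, GCLM, TXNRD1 and SLC7A11). Their median log2 ratio was 0.12 with si-HOIL-1#1 and 0.17 with si-HOIL-1#2, beside 0.02 and 0.03 over all genes used, of which 51.5% and 53.5% were above 0. With the libraries scaled to equal totals, the first was 0.0673. Each median of the 9 is the ratio of GCLC, the middle gene. The set therefore held genes on both sides and had no single direction.

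**Figure D1:**
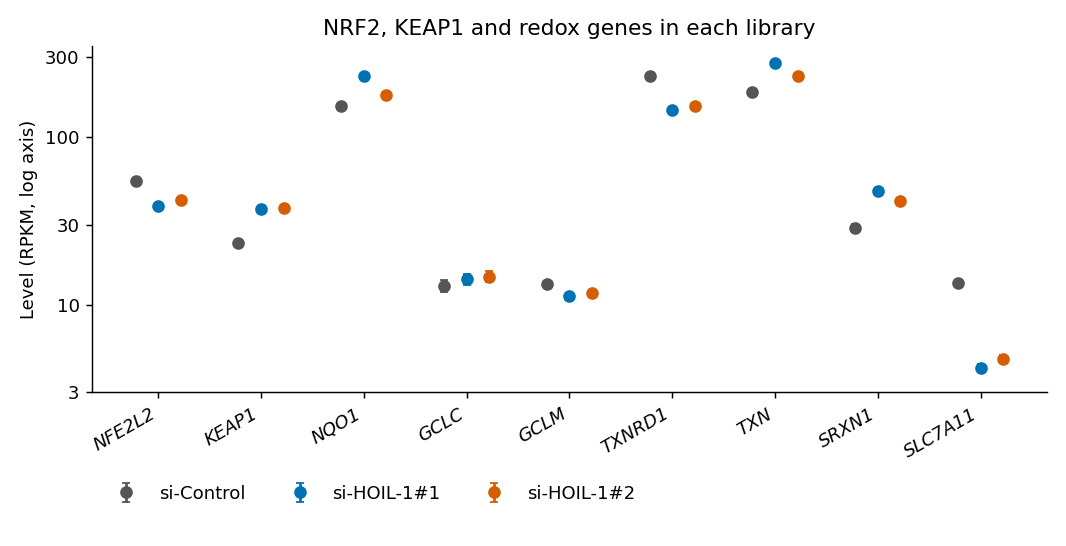
Level of each of the 9 genes (RPKM, log axis) in the si-Control, si-HOIL-1#1 and si-HOIL-1#2 libraries. Points are single libraries and bars are exact 95% Poisson intervals of the reads, mostly smaller than the points. SLC7A11 lies at 13.4 RPKM with si-Control and at 4.21 and 4.76 RPKM with the siRNAs.

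SLC7A11 was the only one of the 9 genes past 2-fold. It was lower with si-HOIL-1#1, where 3.27% of all genes used were at least 2-fold lower, and with si-HOIL-1#2, where 2.27% were. None of the 9 was at least 2-fold higher, beside 2.91% and 2.5% of all genes used. At a limit of 1.5-fold, KEAP1, NQO1 and SRXN1 were higher with si-HOIL-1#1 (3 of 9, beside 12.1% of all genes used) and KEAP1 with si-HOIL-1#2 (1 of 9, beside 11.3%). SLC7A11 and TXNRD1 were at least 1.5-fold lower with each siRNA (2 of 9, beside 11.6% with si-HOIL-1#1 and 9.32% with si-HOIL-1#2). NQO1 with si-HOIL-1#1 and TXNRD1 with si-HOIL-1#2, at log2 ratios of 0.59 and -0.59, lay just past that limit. NQO1 with si-HOIL-1#1 fell short of it with the libraries scaled to equal totals (0.53) or equal medians (0.576), and KEAP1 with si-HOIL-1#1 at equal totals (0.582). With a pseudocount of 5 RPKM, NQO1 (0.573) and KEAP1 (0.562) with si-HOIL-1#1 and TXNRD1 with si-HOIL-1#2 (-0.575) fell short of it.

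**Figure D2:**
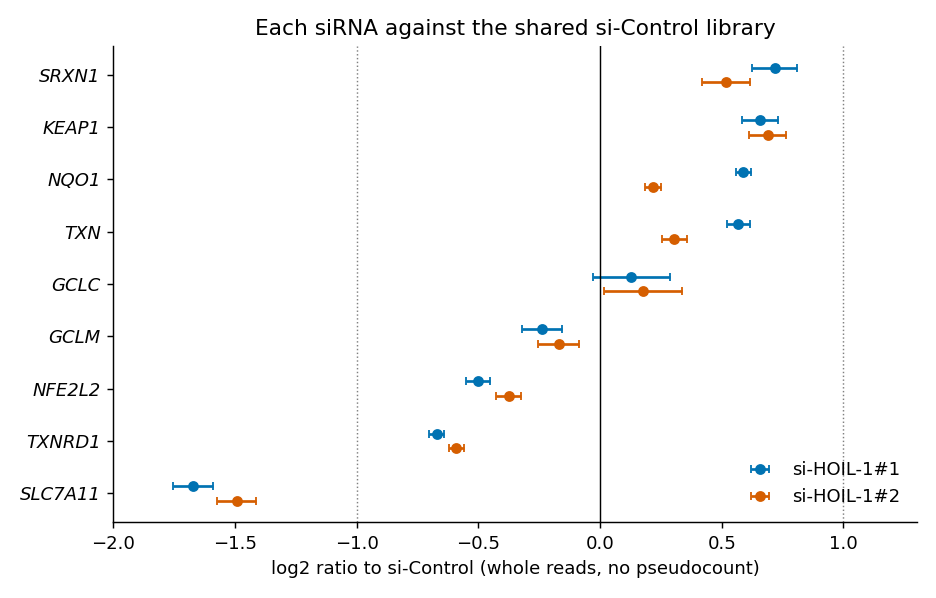
Log2 ratio of whole reads to si-Control for each of the 9 genes and each siRNA, with exact 95% intervals for counting error. Dotted lines mark a 2-fold difference. SLC7A11 lies past the lower line with both siRNAs (-1.67 and -1.49), and the interval of GCLC with si-HOIL-1#1 spans 0 (-0.03 to 0.29). The GCLC intervals may be too wide, as its read numbers are lower bounds.

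NFE2L2 and KEAP1 lay on opposite sides of si-Control. NFE2L2 (chr2:178095031-178129859, minus strand, whole gene as listed in the table, hg19) was at 54.9 RPKM with si-Control, 38.8 with si-HOIL-1#1 and 42.3 with si-HOIL-1#2. Both siRNA libraries were below si-Control, by log2 ratios of -0.49 and -0.37, and 15.2% and 18.2% of all genes used had lower ratios. KEAP1 (chr19:10596796-10614054, minus strand) was at 23.5, 37.0 and 37.8 RPKM in the same order. Here both siRNA libraries were above si-Control, by 0.64 and 0.67, and 89.9% and 91.6% of genes had lower ratios. The siRNA libraries differed from each other for NFE2L2 (log2 0.13 of si-HOIL-1#2 over si-HOIL-1#1, interval 0.07 to 0.18) but not detectably at this depth for KEAP1 (0.03, interval -0.04 to 0.09). Within each library, the NFE2L2 level was 2.34 times that of KEAP1 with si-Control, 1.05 times with si-HOIL-1#1 and 1.12 times with si-HOIL-1#2. The log2 change of this ratio was -1.16 (-1.25 to -1.07) and -1.06 (-1.15 to -0.97).

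Promoter sequence around the start sites of NRF2 target genes is shown because NRF2 acts through it. Reference promoter windows (RefSeq, GRCh38.p14, 250 bases before to 50 after a start) were found for 8 of the 9 genes, 11 windows in all. They were searched on both strands for TGACNNNGC, the core of the antioxidant response element. It occurred in 4 of the 11 windows, from GCLM, KEAP1 and TXNRD1, and in 13.3% of all 35116 windows. The core followed by A, a form chosen after these matches were seen, occurred in 3 windows of the same genes and in 3.18% of all windows. TGACTCA, a site of AP-1 proteins, occurred in none of the 11 and in 4.95% of all, and it overlapped none of these matches. KEAP1 and TXNRD1 also held core matches without the A. TGACACGGC of KEAP1 lay on the gene strand, 46 to 54 bases before a start. TGACTTCGC of TXNRD1 also lay on the gene strand, 91 to 99 bases before 1 of its starts. A further TXNRD1 match, on the opposite strand, did not lie wholly before the start. Capitals mark the core in the matches followed by A. There it lies on the strand opposite to the gene and is therefore read in reverse complement.
GCLM: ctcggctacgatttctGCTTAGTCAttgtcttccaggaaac
KEAP1: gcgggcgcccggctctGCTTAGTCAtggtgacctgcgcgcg
TXNRD1: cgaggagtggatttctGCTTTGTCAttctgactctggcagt
The GCLM stretch is chr1:93909440-93909480 (minus strand), with its core 26 to 34 bases before the start. That of KEAP1 is chr19:10502778-10502818 (minus strand), 23 to 31 bases before the start, and that of TXNRD1 is chr12:104286914-104286954 (plus strand), 94 to 102 bases before 1 of its starts. A match is a run of letters, and no binding was measured. Of these 3 genes, KEAP1 was higher and GCLM and TXNRD1 were lower with both siRNAs.

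Among the glutathione genes, the transporter stood apart from the enzyme. SLC7A11 (chr4:139085248-139163503, minus strand) encodes the light chain of the xc- transporter, which brings in cystine for glutathione synthesis. It was at 13.4 RPKM with si-Control (at least 4778 reads), 4.21 with si-HOIL-1#1 (1643 reads) and 4.76 with si-HOIL-1#2 (1670 reads). Both siRNA libraries were far below si-Control, at 31.4% and 35.5% of its level. The log2(RPKM + 1) ratios were -1.47 and -1.32, and 0.758% and 0.814% of all genes used had lower ones. From reads without a pseudocount the ratios were -1.67 (-1.75 to -1.59) and -1.49 (-1.57 to -1.41), and si-HOIL-1#2 was above si-HOIL-1#1 by 0.18 (0.08 to 0.28). SLC3A2, the heavy chain that anchors this and other amino acid transporters, was at 130, 125 and 148 RPKM, with log2 ratios of -0.06 and 0.18. The level of SLC7A11 was thus 0.103 times that of SLC3A2 with si-Control, 0.0336 times with si-HOIL-1#1 and 0.0322 times with si-HOIL-1#2.

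GCLC and GCLM encode the catalytic and the modifier subunit of glutamate-cysteine ligase, the rate-limiting enzyme of glutathione synthesis. GCLC (chr6:53362139-53409927, minus strand) was at 13.0, 14.2 and 14.7 RPKM with si-Control, si-HOIL-1#1 and si-HOIL-1#2, from at least 608, 728 and 677 reads. These smallest numbers go with a length of 1271 nt, whereas the longest protein-coding GCLC transcript has 3813 nt. The reads may therefore be more numerous and the GCLC intervals too wide. The log2 ratios of GCLC were 0.12 and 0.17. With si-HOIL-1#1 the interval from the smallest reads was -0.03 to 0.29, so whether a difference was detectable cannot be said. With si-HOIL-1#2 that interval was 0.02 to 0.34. GCLM (chr1:94350755-94375154, minus strand) was at 13.2, 11.2 and 11.7 RPKM, below si-Control with each siRNA, at log2 ratios of -0.22 and -0.16. The subunit genes had nearly equal levels with si-Control, a GCLC to GCLM ratio of 0.980, and ratios of 1.27 and 1.25 with the siRNAs. The log2 change of this ratio was 0.37 (0.19 to 0.54) with si-HOIL-1#1 and 0.35 (0.17 to 0.53) with si-HOIL-1#2.

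Thioredoxin was higher and its reductase lower with both siRNAs. TXN (chr9:113006092-113018920, minus strand) encodes cytosolic thioredoxin, a small disulfide reductase, and was at 186 RPKM with si-Control, 276 with si-HOIL-1#1 and 230.4 with si-HOIL-1#2. The log2 ratios were 0.56 and 0.30, and the siRNA libraries differed, si-HOIL-1#2 being lower by a log2 of -0.26 (-0.31 to -0.22). TXNRD1 (chr12:104609557-104744085, plus strand) encodes the selenoprotein that reduces thioredoxin with NADPH. It was the highest of the 9 genes with si-Control, at 231 RPKM, and was at 145 and 153.5 RPKM with the siRNAs. Its log2 ratios were -0.67 and -0.59, with 8.99% and 9.22% of genes lower. The TXN level was 0.807 times that of TXNRD1 with si-Control and 1.904 and 1.501 times with the siRNAs, a log2 change of 1.24 (1.183 to 1.296) and 0.90 (0.84 to 0.95). TXN was thus below TXNRD1 with si-Control and above it in both siRNA libraries.

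TXNIP, whose protein binds thioredoxin and blocks it, was at 194 RPKM with si-Control and 63.6 and 67.3 RPKM with the siRNAs, log2 ratios of -1.59 and -1.51. The TXN to TXNIP ratio was 0.962 with si-Control, 4.34 with si-HOIL-1#1 and 3.42 with si-HOIL-1#2. SRXN1 (chr20:627259-634014, minus strand) encodes sulfiredoxin, which repairs overoxidized peroxiredoxins. It was at 28.8, 47.3 and 41.2 RPKM, above si-Control with each siRNA at log2 ratios of 0.70 and 0.50. PRDX1, a main substrate of sulfiredoxin, was at 231, 564 and 493 RPKM (log2 ratios 1.28 and 1.09). Its pseudogene copies could share reads with it, so the PRDX1 values are uncertain. As PRDX1 differed by more than SRXN1, the SRXN1 to PRDX1 ratio was lower with both siRNAs, 0.0839 and 0.0836 against 0.125 with si-Control.

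**Figure D3:**
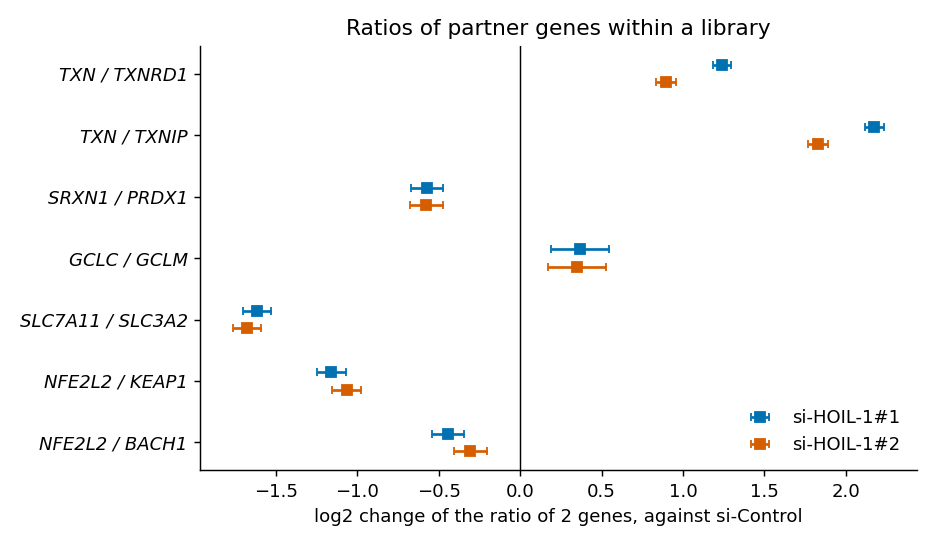
Log2 change, against si-Control, of the ratio of 2 genes' RPKM levels within a library, for 7 pairs and each siRNA, with 95% intervals for counting error from a normal approximation on the log reads. The TXN to TXNIP ratio lies farthest above 0 (2.17 and 1.83) and the SLC7A11 to SLC3A2 ratio farthest below it (-1.61 and -1.67).

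NQO1 (chr16:69743304-69760571, minus strand) encodes a quinone reductase that is widely used as a readout of NRF2. It was at 153 RPKM with si-Control, 229 with si-HOIL-1#1 and 177 with si-HOIL-1#2. Both siRNA libraries were above si-Control but by unequal amounts, log2 0.59 and 0.22, and 87.9% and 65.8% of genes had lower ratios. The siRNA libraries differed from each other by -0.37 (-0.40 to -0.34), the widest gap between them among the 9 genes.

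In order of level, TXNRD1, TXN and NQO1 led with si-Control, followed by NFE2L2, SRXN1 and KEAP1. SLC7A11, GCLM and GCLC came last, and their intervals overlapped. With si-HOIL-1#1 and si-HOIL-1#2, TXN and NQO1 stood above TXNRD1, and SLC7A11 was last, below GCLC and GCLM. The intervals of NFE2L2 and KEAP1 overlapped with si-HOIL-1#1, and those of NFE2L2 and SRXN1 with si-HOIL-1#2.

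Of 37 other genes that NRF2 is known to activate, 33 were used, and 19 were above and 14 below si-Control with each siRNA. The share above was 57.6%, beside 51.5% and 53.5% of all genes used with si-HOIL-1#1 and si-HOIL-1#2. The median log2 ratios of these 33 targets were 0.18 with si-HOIL-1#1 and 0.05 with si-HOIL-1#2, beside 0.02 and 0.03 over all genes used. The si-HOIL-1#1 median of the targets was 0.05 when a mean of 5 RPKM was required. Their si-HOIL-1#2 median was 0.0037 with the libraries scaled to equal medians and 0.23 without genes that have near-identical copies. By the mean of both ratios, the highest of the list was PRDX1, at least 2-fold higher with both siRNAs, and the lowest was HMOX1, which encodes the heme-degrading heme oxygenase 1. HMOX1 was at 68.2 RPKM with si-Control, 16.9 with si-HOIL-1#1 and 37.3 with si-HOIL-1#2, log2 ratios of -1.95 and -0.85, so the siRNA libraries were both lower but far from each other. AKR1B10, an aldo-keto reductase, was the other target at least 2-fold higher with si-HOIL-1#1 (2.31, 7.22 and 4.34 RPKM, log2 ratios of 1.31 and 0.69). Of the 33, 2 and 1 were at least 2-fold higher with si-HOIL-1#1 and si-HOIL-1#2, beside 2.91% and 2.5% of all genes used. At least 2-fold lower were 1 and 0, beside 3.27% and 2.27%. The ferritin genes FTH1 and FTL, which have many pseudogene copies, were the most abundant of the list. FTH1 was at 10033, 6872 and 6402 RPKM (-0.55 and -0.65) and FTL at 4120, 4218 and 3850 RPKM (0.03 and -0.10).

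PGD, an enzyme that makes NADPH, which TXNRD1, NQO1 and glutathione reductase use, was higher with both siRNAs, at 70.2, 109 and 99.0 RPKM. ME1, malic enzyme, which also makes NADPH, was lower with both, at 25.3, 21.0 and 17.9 RPKM. Among the drug efflux genes of the other NRF2 targets, ABCC1, ABCC3 and ABCC4 were lower with both siRNAs, and only ABCC2 was listed higher. The log2 ratios with si-HOIL-1#1 and si-HOIL-1#2 were -0.41 and -0.36 for ABCC1, and -0.46 and -0.14 for ABCC4. ABCC3 was at 74.8, 41.8 and 54.3 RPKM, whereas ABCC2 was listed at 70.3, 141 and 141 RPKM, values that gave no whole reads and so have no interval. AKR1B10, PGD, ME1, ABCC1, ABCC2, ABCC3 and ABCC4 were picked after their values were seen.

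Of 22 partners and regulators of NRF2, 20 were used, with 8 above and 12 below si-Control for si-HOIL-1#1 and 7 and 13 for si-HOIL-1#2. The shares above were 40% and 35%, beside 51.5% and 53.5% of all genes used. The medians of the 20 were -0.07 and -0.12, beside 0.02 and 0.03 over all genes used. DPP3, a peptidase that competes with NRF2 for KEAP1, was at 13.3, 23.7 and 27.9 RPKM, log2 ratios of 0.79 and 1.02. It was the only one of the 20 past 2-fold, with si-HOIL-1#2, where 2.5% of all genes used were at least 2-fold higher. SQSTM1, the autophagy receptor p62 that draws KEAP1 away from NRF2, was at 1125, 834 and 892 RPKM (-0.43 and -0.33). NFE2L1, a relative of NRF2, had the lowest mean ratio of the list and was at 209, 162 and 153 RPKM (-0.36 and -0.44). BACH1, a repressor that competes with NRF2 at its sites, was nearly level at 8.27, 7.93 and 7.87 RPKM (-0.05 and -0.06), and the NFE2L2 to BACH1 ratio was 6.64, 4.89 and 5.37. RBX1, the RING subunit of the KEAP1-CUL3 ligase, picked after its values were seen, was at 11.96, 22.7 and 23.7 RPKM (0.87 and 0.93). CUL3, the scaffold of the same ligase, also picked then, was at 14.6, 13.6 and 12.9 RPKM (-0.10 and -0.17).

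All 14 genes of the other glutathione steps were used. Of these, 4 were above and 10 below si-Control with si-HOIL-1#1, and 5 and 9 with si-HOIL-1#2, with medians of -0.17 for each. The shares above were 28.6% and 35.7%, beside 51.5% and 53.5% of all genes used. CTH, which makes cysteine from cystathionine, was the only one at least 2-fold lower with both siRNAs (34.4, 13.9 and 12.1 RPKM, log2 ratios of -1.25 and -1.44). CBS, the enzyme before it in the same route, picked after its values were seen, was past 2-fold with si-HOIL-1#1 (34.5, 14.4 and 20.1 RPKM, -1.20 and -0.75). Of the 14, 2 and 1 were at least 2-fold lower with si-HOIL-1#1 and si-HOIL-1#2, beside 3.27% and 2.27% of all genes used. GSR, glutathione reductase, had the highest mean ratio (32.8, 58.9 and 49.1 RPKM, 0.82 and 0.57). GSTP1, a glutathione transferase and the most abundant of the list, was at 312, 401 and 398 RPKM (0.36 and 0.35). CHAC1, which degrades glutathione, was at 12.7, 10.8 and 7.89 RPKM (-0.22 and -0.62).

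All 16 other genes of the thioredoxin system were used, with 8 above and 8 below si-Control for each siRNA and medians of 0.00 and 0.02. The share above was 50%, beside 51.5% and 53.5% of all genes used with si-HOIL-1#1 and si-HOIL-1#2. PRDX1 was at least 2-fold higher and TXNIP at least 2-fold lower with both. TXNDC12, an oxidoreductase of the endoplasmic reticulum, picked after its values were seen, was past 2-fold with si-HOIL-1#2 (20.7, 12.3 and 6.03 RPKM, -0.71 and -1.63). Of the 16, 1 was at least 2-fold higher with each siRNA, beside 2.91% and 2.5% of all genes used. At least 2-fold lower were 1 with si-HOIL-1#1 and 2 with si-HOIL-1#2, beside 3.27% and 2.27%. PRDX6, another peroxiredoxin, was at 250, 335 and 265 RPKM (0.42 and 0.08).

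**Figure D4:**
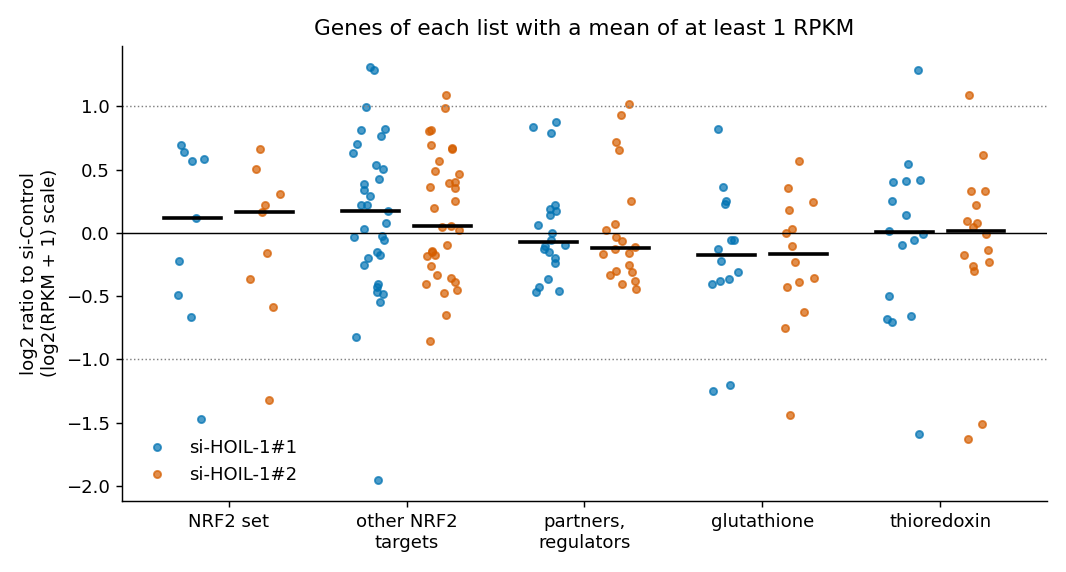
Log2 ratio to si-Control, on the log2(RPKM + 1) scale, of every gene used (mean level 1 RPKM or above) in the NRF2 set described here and in 4 other lists, for each siRNA. Points are genes, thick bars are medians and dotted lines mark a 2-fold difference. Points lie on both sides of 0 in all 5 lists, and the lowest are HMOX1 with si-HOIL-1#1 (-1.95) and TXNDC12 with si-HOIL-1#2 (-1.63).

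Genes that overlap the 9 had low levels. EID3, on the same strand within the TXNRD1 gene, was at 1.40, 1.88 and 2.11 RPKM, and a transcript within a KEAP1 intron reached 1.25 RPKM. SLC7A11-AS1, opposite to SLC7A11, did not exceed 0.0989 RPKM. Whether the counting used strand is not given in the sources used here, so reads of overlapping genes may not have been told apart.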

How the data were processed

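RNA of Caki-1 cells was sequenced in 3 libraries, 1 per condition. The authors deposited RPKM values per gene and library. Per the labels, ribosomal RNA was removed with Ribo-Zero and the reads were paired-end. The submitters' processing notes name FastQC, Trimmomatic, TopHat2, HTSeq and hg19, with no role or order. The deposited table also holds the authors' own comparison (fold changes, p-values and q-values), which was not used. Of the 44591 genes, 1 has an entry that is not a number.

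Ratios were taken on log2(RPKM + 1), each siRNA library against si-Control, over the 12403 genes whose mean level was 1 RPKM or above. The 2-fold limit is that of the methods. It was read beside a looser limit of 1.5-fold. Library totals were found from RNAs of up to 200 nt, and for 12388 of the genes used (99.9%) the smallest length of up to 50000 nt that gave whole reads within 0.002 reads (or 3e-09 of the value, if larger) was taken, so read numbers are lower bounds and intervals may be too wide. Ratio intervals are exact Clopper-Pearson intervals (95%) and level intervals exact Poisson intervals. Samples were grouped by their titles. The steps were tested on simulated data.

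The 9 genes, the lists (other NRF2 targets, partners and regulators of NRF2, glutathione steps, thioredoxin system, renal markers, markers of other cell types) and the 7 pairs were chosen with earlier results of these data known. PRDX1, GSR, MGST1, ABCC1, MAFG and SQSTM1 each stand in 2 lists. Genes named are the 9, RBCK1, and of each list those at least 2-fold changed the same way with both siRNAs, the 2 of highest mean level and those of largest and smallest mean ratio, besides HMOX1, TXNIP, SLC3A2, CHAC1, BACH1 and SQSTM1. Others are named as picked after their values were seen, as are markers that check the line. siRNA strands come from the study's supplementary list, promoters from RefSeq (GRCh38.p14) and transcripts from GENCODE (GRCh38), whereas gene positions are those of the table. Alternatives were other pseudocounts, scalings, filters and limits. Scripts ran in Python 3.11.15 with scipy 1.17.1, numpy 2.4.6 and pandas 2.3.3, and plots were drawn with matplotlib 3.10.9.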

Additional observations from a re-analysis of the deposited data

How the results depend on the processing

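No paired analysis was possible because there is only 1 library in each condition. No result reversed. The median of the 9 genes lay between 0.0673 (equal totals) and 0.128 with si-HOIL-1#1 and between 0.118 (equal medians) and 0.177 with si-HOIL-1#2. The filters could not change it or any ratio of the 9 genes, since all 9 passed them. Under the other settings, 17 of 90 single-gene ratios moved by more than their counting interval, and none changed sign. With a pseudocount of 5 RPKM, the number of the 9 genes past 2-fold was 0 with each siRNA (SLC7A11 at -0.999 and -0.915) and that of all genes was 219 with si-HOIL-1#1 and 198 with si-HOIL-1#2, against 766 and 591. With a pseudocount of 0.1 RPKM the counts over all genes were 1346 and 1085 (SLC7A11 at -1.65 and -1.47). A mean of at least 5 RPKM left 455 and 391. At 1.5-fold, 5 and 3 of the 9 genes and 2934 and 2556 of all genes were past the limit. The median of the other NRF2 targets with si-HOIL-1#1 was 0.0742 with no filter and 0.0540 for a mean of at least 5 RPKM. That with si-HOIL-1#2 was 0.0037 at equal medians and 0.0214 at equal totals. It was 0.23 without genes that have near-identical copies, an alternative added after seeing the data, as were reads without a pseudocount and the list without ABCC2. Scaling to equal medians or equal totals shifted log2 ratios by at most -0.06. The GCLC reads, 608 to 728, are lower bounds, so its intervals may be too wide and a limit from depth cannot be stated.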

Other observations

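NFE2L3 and GGT1, both picked after their values were seen, lay on opposite sides of si-Control with the siRNAs. NFE2L3, a relative of NRF2, was at 7.96 RPKM with si-Control, 9.22 with si-HOIL-1#1 and 6.24 with si-HOIL-1#2. GGT1, which starts the breakdown of extracellular glutathione, was at 5.52, 4.02 and 6.70 RPKM.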
